A study of Rattus norvegicus with 6 samples.

Results

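The genes described here encode the glycosyltransferases and sulfotransferases that build and finish surface glycans: 85 genes of 12 families, out of 14506 genes on arrays of rat endosalpinx, the mucosa that lines the oviduct. A gene was a member if its symbol began with Galnt, Gcnt, Mgat, B3galt, B4galt, B3gnt, B4galnt, Fut followed by a digit, St3gal, St6gal, St8sia or Chst, and if a probe set carried that symbol alone; of several probe sets for a gene, the one of highest mean over all arrays was kept. All 6 animals were Sprague-Dawley females weighing 240 to 280 g, or 241 to 280 g in unmated replicate 2, and each gave 1 array. The 3 mated rats joined fertile males at 2200 h on the evening of pro-estrus, were found to carry sperm or a vaginal plug 30 min later, were left together with them up to 0130 h in estrus, and were killed 3 h after mating with abundant semen in the uterus. The 3 unmated rats were kept isolated and were killed at 0130 h of estrus with uterine edema. The labels describe the company of a male and the vaginal check only for the mated rats, so these cannot be told apart from mating itself.

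Glycans on the epithelial surface and in oviductal fluid are assembled in the Golgi by enzymes that act in order. Mucin-type O-glycans are started by the Galnt enzymes and branched by Gcnt enzymes, and N-glycans are branched by most Mgat enzymes. Both are lengthened with galactose and N-acetylglucosamine by many B3galt, B4galt and B3gnt enzymes. Fucose and sialic acid are added to the chains by Fut, St3gal, St6gal and St8sia enzymes. Chst enzymes add sulfate, some of them, such as Chst14 and Chst15, to dermatan or chondroitin. The oviduct is known for holding sperm against its epithelium, and in several mammals this binding depends on sugars such as fucose and sialic acid.

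Of the 85 members, 6 had an unadjusted p under 0.05 between mated and unmated rats by limma (7.06%, against 4.57% of all genes). No member passed an adjusted p of 0.05. The upstream sequences of 5 of the 6 were in the RefSeq promoter table, which held 69 members in all. They are shown because they belong to the members of smallest p. Each is the 250 bases before the RefSeq transcription start in the assembly GRCr8, read 5′ to 3′ on the strand of the gene. Capitals mark matches, on either strand, to any of 9 motifs. These were the GC box (GGGCGG), the CCAAT box (CCAAT), the TATA box (TATAAA) and the E-box (CACGTG), the cyclic AMP response element (TGACGTCA) and the AP-1 site (TGANTCA), the nuclear receptor motif (AGGTCA), and the longer estrogen response element and heat shock element, given by name. The nuclear receptor motif lies inside the estrogen element wherever that element is preceded by A.
Chst10 (chr9:48618443-48618692, minus strand): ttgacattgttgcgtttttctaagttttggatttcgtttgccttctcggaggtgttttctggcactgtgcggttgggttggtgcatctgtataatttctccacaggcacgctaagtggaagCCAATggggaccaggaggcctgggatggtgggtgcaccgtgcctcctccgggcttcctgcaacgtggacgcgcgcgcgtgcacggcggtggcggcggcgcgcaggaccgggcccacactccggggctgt
Fut2 (chr1:105276028-105276277, minus strand): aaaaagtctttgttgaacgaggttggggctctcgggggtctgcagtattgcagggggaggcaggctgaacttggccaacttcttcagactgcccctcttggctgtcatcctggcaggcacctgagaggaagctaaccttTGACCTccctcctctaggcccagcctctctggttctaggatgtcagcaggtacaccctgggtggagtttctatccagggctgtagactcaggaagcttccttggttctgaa
Gcnt3 (chr8:79573558-79573807, minus strand): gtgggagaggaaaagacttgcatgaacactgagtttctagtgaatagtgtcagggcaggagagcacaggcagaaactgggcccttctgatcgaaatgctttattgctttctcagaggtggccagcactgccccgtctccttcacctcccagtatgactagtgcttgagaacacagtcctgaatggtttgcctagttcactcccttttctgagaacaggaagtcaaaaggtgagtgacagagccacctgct
B3gnt7 (chr9:94403947-94404196, plus strand): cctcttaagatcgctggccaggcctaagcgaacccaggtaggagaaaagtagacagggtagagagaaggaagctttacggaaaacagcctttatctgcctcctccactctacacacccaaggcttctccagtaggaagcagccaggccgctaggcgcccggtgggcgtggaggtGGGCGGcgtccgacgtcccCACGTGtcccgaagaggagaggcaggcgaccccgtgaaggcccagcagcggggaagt
B3gnt8 (chr1:90263137-90263386, plus strand): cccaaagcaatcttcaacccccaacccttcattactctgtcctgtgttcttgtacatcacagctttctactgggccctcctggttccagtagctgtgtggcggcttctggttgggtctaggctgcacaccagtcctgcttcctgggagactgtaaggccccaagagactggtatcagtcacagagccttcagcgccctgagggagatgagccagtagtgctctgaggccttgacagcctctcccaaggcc

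Upstream of Chst10 the only match was a CCAAT box at -129 to -125, counted from the start. Fut2 held a nuclear receptor motif on the opposite strand at -111 to -106. B3gnt7 held a GC box at -76 to -71 and an E-box at -57 to -52, and no motif was matched in the windows of Gcnt3 and B3gnt8. Over the 69 member windows, the nuclear receptor motif was found in 14.5%, against 11.8% of the windows of 11968 measured genes and 14.1% of all 33469 windows of this length. The GC box was found in 50.7% of member windows, 47.3% of those of measured genes and 30.5% of all windows, and the CCAAT box in 31.9%, 35.6% and 34.0%. The TATA box was found in 3 member windows (4.35%), against 11.3% and 12.9%. The E-box was in 8.7% of member windows, 6.92% of those of measured genes and 5.59% of all windows. For the cyclic AMP element these shares were 1.45%, 2.28% and 1.59%, and for the AP-1 site 1.45%, 5.49% and 6.34%. The full estrogen element and the heat shock element were in 0 member windows, and in 0.0239% and 0.663% of all windows. These are matches of letters and show no binding.

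Most members lay above a rough limit of background, as did most genes on the arrays. As a guide to background, the 95th percentile of the mean signals of 1240 odorant and pheromone receptor genes lay at a log2 signal of 7.13, called the receptor limit here, and 67 of the 85 members (78.8%) lay above it, against 71.1% of all genes. All members of Gcnt (2), B4galt (7), B3gnt (8), B4galnt (2) and St3gal (6) lay above it. So did 11 of 16 Galnt, 7 of 8 Mgat, 7 of 8 Fut, 9 of 11 Chst, 4 of 6 St6gal and 3 of 5 B3galt genes. Only 1 of 6 St8sia genes did, namely St8sia2, one of the enzymes that make polysialic acid. The nearest members to the limit were B3galt4 above it, at a mean of 7.35 over all arrays, and St8sia1 below it, at 6.97. Of the members above the limit, 57 stayed above when the 99th percentile of the receptor genes was used and 70 members did with the 90th. Signals of different probe sets are not on a common scale, so the limit is only a rough guide. Apart from the calls against it, levels are compared here only within a gene.

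**Figure D1:**
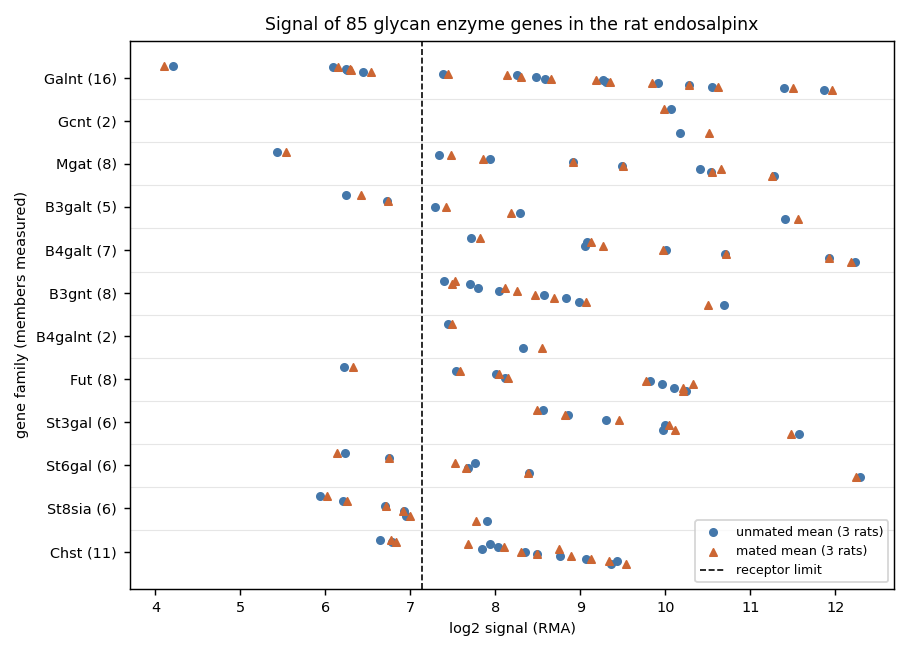
Mean log2 signal (horizontal axis) of each of the 85 members in 3 unmated rats (circles) and 3 mated rats (triangles), in rows by family, with the receptor limit of 7.13 as a dashed line. Of the members, 67 lie to the right of the line and 18 to the left, 5 of them St8sia genes; positions of different genes are not comparable as amounts.

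The tissue label was checked against marker lists. Of the secretory epithelial markers 12 of 12 measured, and of the ciliated markers 9 of 10, lay above the receptor limit, as did 8 of 9 smooth muscle, 9 of 12 fibroblast, 6 of 9 endothelial and 10 of 12 macrophage and dendritic markers. The smooth muscle share is close to the ciliated one. Across all genes 71.1% lay above the limit, and cell makeup is not read from any of these shares. Lymphocyte markers (4 of 10), neutrophil markers (1 of 10) and seminal vesicle genes (0 of 6) mostly lay within the receptor range, and sperm and male germ cell genes were above it for 7 of 14, with array means between 7.80 and 7.83 in unmated and between 7.76 and 7.84 in mated rats. In such bulk RNA, fewer cells of a type and less RNA per cell cannot be told apart.

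Between mated and unmated rats, 0 of 85 members passed an adjusted p of 0.05 (limma, Benjamini-Hochberg over 14506 genes), where 0.0% of all genes did, and the smallest adjusted p of a member was adjusted p = 0.984. At an unadjusted p under 0.05 there were 6 members (7.06%), against 4.57% of all genes; without mated replicate 1 these shares were 5.88% and 9.67%. Fut2, Gcnt3 and Chst10 were higher in mated rats, 3.53% of the members against 3.02% of all genes, and Chst14, B3gnt7 and B3gnt8 were lower, 3.53% against 1.55%. The mated values lay above the unmated values without overlap for 3 members (3.53%, against 5.24% of all genes) and below them without overlap for 4 (4.71%, against 3.23%). These shares rest on few genes and are not corrected for the number tested. The median log2 fold change over the members was 0.043 (0.021 after a second quantile normalization and 0.027 after median centring), beside 0.010 over all genes. Of the members, 53 were higher, 31 lower and 1 equal, a share of 62.4% higher against 53.2% of all genes and of 36.5% lower against 45.5%. After a second quantile normalization 50 were higher and 35 lower, and after median centring 46 and 38. Of the genes that were not equal, 58.8% and 54.8% of members were then higher, against 51.3% and 47.2% of all genes. Among the 67 members above the receptor limit 38 were higher and 28 lower, with a median of 0.017, beside 5078 higher and 5076 lower of all genes above it. For the median member the 95% confidence interval reached 0.22 log2 units to either side of the estimate.

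**Figure D2:**
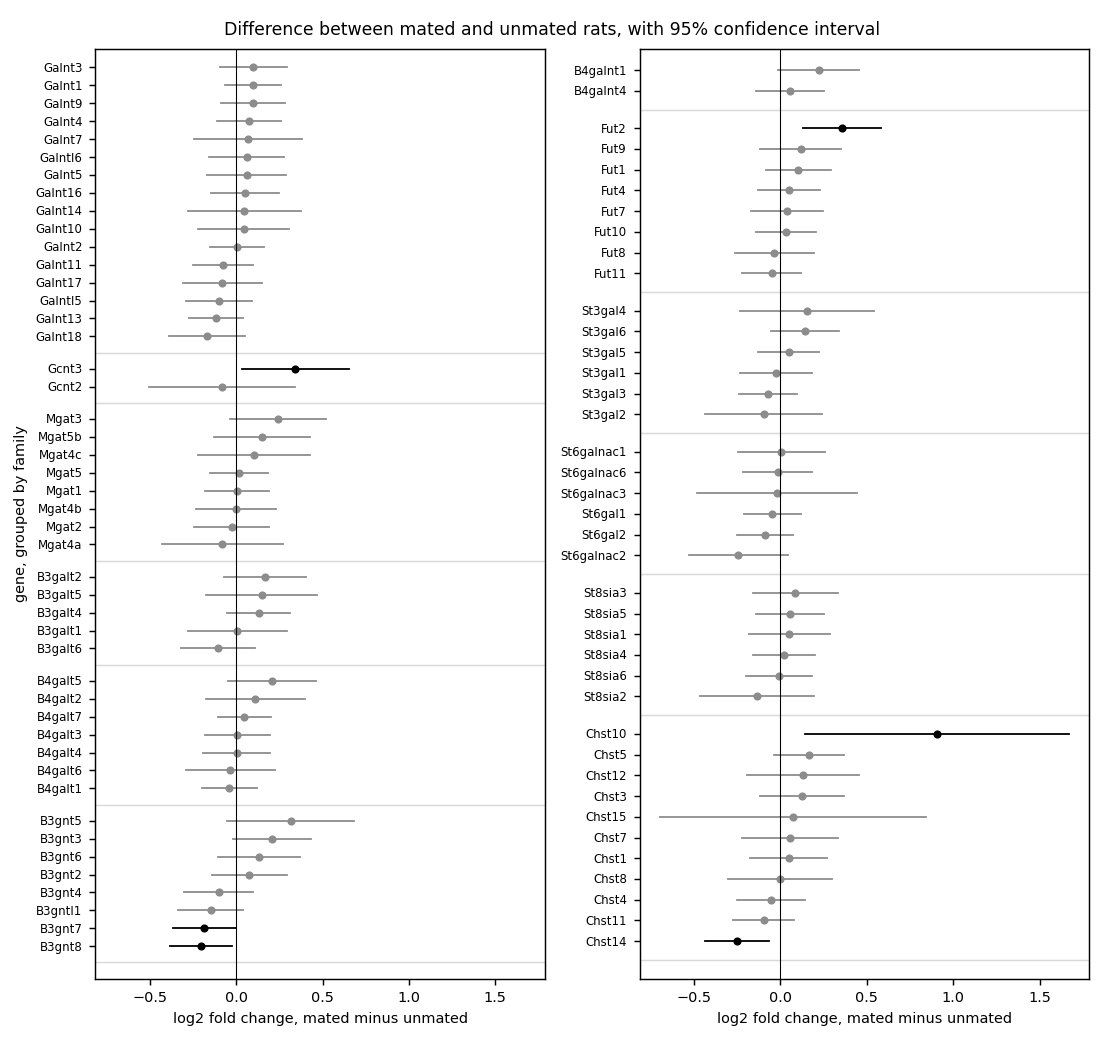
Log2 fold change, mated minus unmated (horizontal axis), of each of the 85 members with its 95% confidence interval from limma, in rows by family. Black marks the 6 members at an unadjusted p under 0.05 and grey the others; Chst10, at 0.91, lies apart from the rest, whose largest value is 0.36 for Fut2.

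The enzymes that start mucin-type O-glycans differed little. The 16 Galnt genes ranged from -0.17 for Galnt18 to 0.10 for Galnt3, with a median log2 fold change of 0.048 (0.026 after a second quantile normalization and 0.032 after median centring). Of these, 0 had an unadjusted p under 0.05, beside 4.57% of all genes, a share at which 0 of 16 is unremarkable. Galnt18, a member of the family that transfers N-acetylgalactosamine to serine or threonine, was at 8.44, 8.65 and 8.33 on the 3 unmated arrays and at 8.36, 8.34 and 8.22 on the mated arrays. The groups overlap, since mated replicates 1 and 2 lie just above unmated replicate 3. Galnt13, named after its values were seen, was the only Galnt gene without overlap, at 8.28, 8.19 and 8.28 in unmated and 8.11, 8.18 and 8.11 in mated rats. The gap between the groups was narrow, and the log2 fold change was -0.12 (95% confidence interval -0.27 to 0.04). Galntl6 was measured by 6 probe sets and Mgat4a by 2; the rest had 1 each. For Mgat4a the probe set kept differed by -0.08 and the other, also above the receptor limit, by 0.083. The probe sets of Galntl6 averaged between 4.39 and 7.42, and only the brightest lay above the receptor limit.

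Of the branching enzymes, Gcnt3, which makes branched O-glycan cores in mucous epithelia, had a higher signal on a pair of the mated arrays. It was at 10.26, 10.14 and 10.11 in unmated rats and at 10.19, 10.68 and 10.67 in mated rats. Mated replicate 1 lies among the unmated values, and the other mated arrays lie above all of them. Its log2 fold change was 0.34 (95% confidence interval 0.03 to 0.65; adjusted p = 0.984 by limma). Without mated replicate 1 it was 0.51 (0.32 to 0.69), and without mated replicate 2 it was 0.26 (-0.08 to 0.60). The interval took in 0 in 4 of the 6 fits with an array left out, those without mated replicate 2 or 3 or unmated replicate 2 or 3. Gcnt2, which makes the branched I antigen, is named after its values were seen. It was at 10.40, 10.06 and 9.73 in unmated and 10.27, 9.88 and 9.79 in mated rats. The mated values of Gcnt2 lie inside the range of the unmated ones.

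Among the Mgat genes, 5 were higher, 2 lower and 1 equal, with Mgat4a lower only on the probe set kept. The median log2 fold change was 0.012 as deposited, -0.0050 after median centring and 0.081 without mated replicate 2. Mgat3, which adds the bisecting N-acetylglucosamine, differed most, at 10.28, 10.66 and 10.28 in unmated and 10.72, 10.50 and 10.73 in mated rats. Unmated replicate 2 lies within the mated range. The log2 fold change was 0.24 (95% confidence interval -0.04 to 0.52), and 0.37 without that array. Mgat1, which commits an N-glycan to the complex type, averaged 9.49 ± 0.06 without and 9.50 ± 0.12 with mating (SD over 3 rats each), and Mgat5, which starts the branch often extended with lactosamine repeats, at 10.53 ± 0.04 and 10.55 ± 0.09. Both are named after their values were seen. Their intervals, -0.18 to 0.19 for Mgat1 and -0.15 to 0.18 for Mgat5, leave room only for small differences before adjustment.

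Of the galactosyltransferases, 0 had an unadjusted p under 0.05, beside 4.57% of all genes, and nothing is read from this 0 in so few genes. The 7 B4galt genes ranged from -0.04 to 0.21, with a median of 0.0067, which was 0.011 with a second quantile normalization and -0.010 with median centring. B4galt5, which makes lactosylceramide, the base of most glycolipids, differed most. It was at 9.03, 9.10 and 9.05 in unmated and 9.22, 9.07 and 9.51 in mated rats. Mated replicate 2 lies within the unmated range, and the log2 fold change of 0.21 (95% confidence interval -0.05 to 0.46) became 0.085 without mated replicate 3. The 5 B3galt genes had a median of 0.13, with B3galt2 at 0.17 (-0.07 to 0.40) and B3galt4, which works on gangliosides, at 0.13 (-0.05 to 0.31). B3galt2 lies within the receptor range. Without mated replicate 2 the B3galt median was 0.010.

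The chain-extending B3gnt genes pointed both ways. Of 8, 4 were higher and 4 lower in mated rats, and the median of -0.012 turned to 0.00060 when the arrays were quantile normalized again. B3gnt7, which lengthens keratan sulfate and lactosamine chains, was at 10.67, 10.72 and 10.67 in unmated and 10.38, 10.52 and 10.61 in mated rats. The mated values lie below the unmated ones without overlap, and the log2 fold change was -0.18 (95% confidence interval -0.36 to -0.0026; adjusted p = 0.984 by limma). With each array left out it lay between -0.24 and -0.12, and its interval took in 0 in 5 of those 6 fits, all but the one without mated replicate 3. It also did with the replicate block (-0.38 to 0.02), with array weights (-0.31 to 0.01) and after a second quantile normalization (-0.39 to 0.02). B3gnt8, which extends lactosamine chains on branched N-glycans, was at 7.71, 7.59 and 7.79 in unmated and 7.47, 7.56 and 7.45 in mated rats. The groups are separated by a small step, and the log2 fold change was -0.20 (-0.38 to -0.02; adjusted p = 0.984 by limma). The B3gnt8 estimate lay between -0.26 and -0.16 with each array left out, and its interval took in 0 in 4 of those 6 fits. With the replicate block the B3gnt8 interval also took in 0 (-0.42 to 0.01). B3gntl1 was lower by a similar margin, at -0.15 (-0.34 to 0.04), with 1 mated array inside the unmated range.

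In the other direction, B3gnt5, which starts the lacto-series glycolipids, was at 8.08, 7.69 and 7.61 in unmated and 8.20, 7.82 and 8.31 in mated rats. Unmated replicate 1 lies above mated replicate 2. The log2 fold change was 0.32 (95% confidence interval -0.05 to 0.68), below only Chst10, Fut2 and Gcnt3 among the members, and 0.46 without unmated replicate 1 or without mated replicate 2. B3gnt3, an enzyme that extends the core of mucin-type O-glycans and is named after its values were seen, was at 7.84, 8.12 and 8.18 in unmated and 8.27, 8.22 and 8.27 in mated rats. The groups do not overlap, and the log2 fold change was 0.21 (-0.02 to 0.43). Of the B4galnt genes, B4galnt1, the synthase of gangliosides GM2 and GD2, was at 8.33, 8.43 and 8.22 in unmated and 8.56, 8.71 and 8.37 in mated rats, a log2 fold change of 0.22 (-0.02 to 0.46). Its mated replicate 3 lies inside the unmated range.

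Among the fucosyltransferases, Fut2 had the smallest p of all 85 members. Fut2 adds the fucose of the H antigen in secretory epithelia and is the secretor gene of blood group biology. It was at 9.96, 9.94 and 10 in unmated rats and at 10.13, 10.34 and 10.50 in mated rats. The unmated arrays lie close together, every mated array lies above them, and mated replicate 1 is the nearest to them. The log2 fold change was 0.36 (95% confidence interval 0.13 to 0.58), or 1.28-fold, with an adjusted p = 0.984 by limma. With each array left out in turn it lay between 0.27 and 0.45, the lowest without mated replicate 3 and the highest without mated replicate 1. The remaining 7 Fut genes lay between -0.05 and 0.12, and 0 of them had an unadjusted p under 0.05, beside 4.57% of all genes. Fut1, the other enzyme of the H antigen, lay within the receptor range and averaged 6.22 ± 0.06 without and 6.32 ± 0.11 with mating (SD over 3 rats each). Fut9, which makes the Lewis x structure, averaged 10.10 ± 0.06 and 10.21 ± 0.19, and Fut8, the enzyme of core fucose on N-glycans, at 10.24 ± 0.19 and 10.21 ± 0.04. Fut1, Fut8 and Fut9 are named after their values were seen.

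Markers of the epithelial cell types were read on the same arrays. Relative to the unmated mean, the mean of 12 secretory markers was 0.010, 0.039 and 0.14 on the 3 mated arrays. It lay between -0.034 and 0.041 on the unmated arrays. Of the 12, 11 were higher in mated rats, against 53.2% of all genes, and 0 had an unadjusted p under 0.05. The mean of 10 ciliated markers was 0.13 on mated replicate 1 and -0.13 and -0.18 on the other mated arrays. It lay between -0.095 and 0.10 on the unmated arrays. Of these markers, 9 of 10 were lower in mated rats, against 45.5% of all genes. The other, Spag6, named after its values were seen, was higher without overlap, at a log2 fold change of 0.17. It alone had an unadjusted p under 0.05 by limma. Mated replicate 1 had the lowest Fut2 and Gcnt3 signals of the mated group and the highest mean of the ciliated markers. The secretory mean was 0.041 on unmated replicate 3 and 0.039 on mated replicate 2. On these arrays Fut2 was at 10 and 10.34, and Gcnt3 at 10.11 and 10.68. The part of cell makeup in the Fut2 and Gcnt3 differences was not tested.

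The sialyltransferases gave 0 members at an unadjusted p under 0.05 out of 18, beside 4.57% of all genes. With so few genes this 0 is not read as a result. The 6 St3gal genes had a median of 0.010 as deposited and -0.0067 after median centring. St3gal6 differed by 0.14 (95% confidence interval -0.06 to 0.34). St3gal4, like it an enzyme that caps galactose with sialic acid, was at 9.55, 8.86 and 9.48 in unmated and 9.43, 9.42 and 9.50 in mated rats. Unmated replicate 2 stands below the other arrays, and the log2 fold change of 0.15 (-0.23 to 0.54) became -0.065 without it. Of the 6 genes of the St6gal family 5 were lower and 1 higher, with a median of -0.033 that was -0.046 and -0.050 under the other scalings. St6galnac2, which sialylates O-glycan cores, was at 7.66, 7.82 and 7.81 in unmated and 7.33, 7.80 and 7.43 in mated rats. Mated replicate 2 lies within the unmated range, and the log2 fold change was -0.24 (-0.53 to 0.04), or -0.38 without that array.

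St6gal1, which puts sialic acid on N-glycans and is named after its values were seen, was at 12.31, 12.35 and 12.20 in unmated and 12.18, 12.28 and 12.26 in mated rats. The groups overlap, with a log2 fold change of -0.05 (95% confidence interval -0.21 to 0.12). St8sia2 was at 7.60, 7.92 and 8.20 in unmated and 7.76, 7.87 and 7.68 in mated rats, a log2 fold change of -0.14 (-0.47 to 0.19) that was 0.010 without unmated replicate 3. The mated values all lie inside the unmated range.

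Among the sulfotransferases, Chst10 had the largest difference of all 85 members. Chst10 transfers sulfate to glucuronic acid in the HNK-1 epitope, a sulfated sugar of neural cell adhesion molecules. It has also been described as acting on glucuronidated steroids, estrogens among them. Earlier results of these data had already pointed to it, so its values are a description. Its log2 signal was 8.35, 8.17 and 7.01 in unmated rats and 8.44, 8.73 and 9.08 in mated rats. All mated values lie above all unmated values, but the step from unmated replicate 1 to mated replicate 1 is small, and unmated replicate 3 stands far below the other arrays. The means were 7.84 ± 0.73 and 8.75 ± 0.32 (SD, n = 3 per group), a log2 fold change of 0.91 (95% confidence interval 0.14 to 1.67), or 1.87-fold, with an adjusted p = 0.984 by limma. Without unmated replicate 3 the log2 fold change was 0.49 (0.06 to 0.92; adjusted p = 0.82 by limma), and with each of the other arrays left out it lay between 0.74 and 1.16. The interval took in 0 without mated replicate 2 (-0.03 to 1.86) and without mated replicate 3 (-0.13 to 1.62). It was the only member at an unadjusted p under 0.05 with at least a 1.5-fold difference, 1.18% of the members, against 0.131% of all genes. Nothing is read from that share, since it is 1 gene that earlier results had pointed to, and its difference without unmated replicate 3 is below 1.5-fold.

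**Figure D3:**
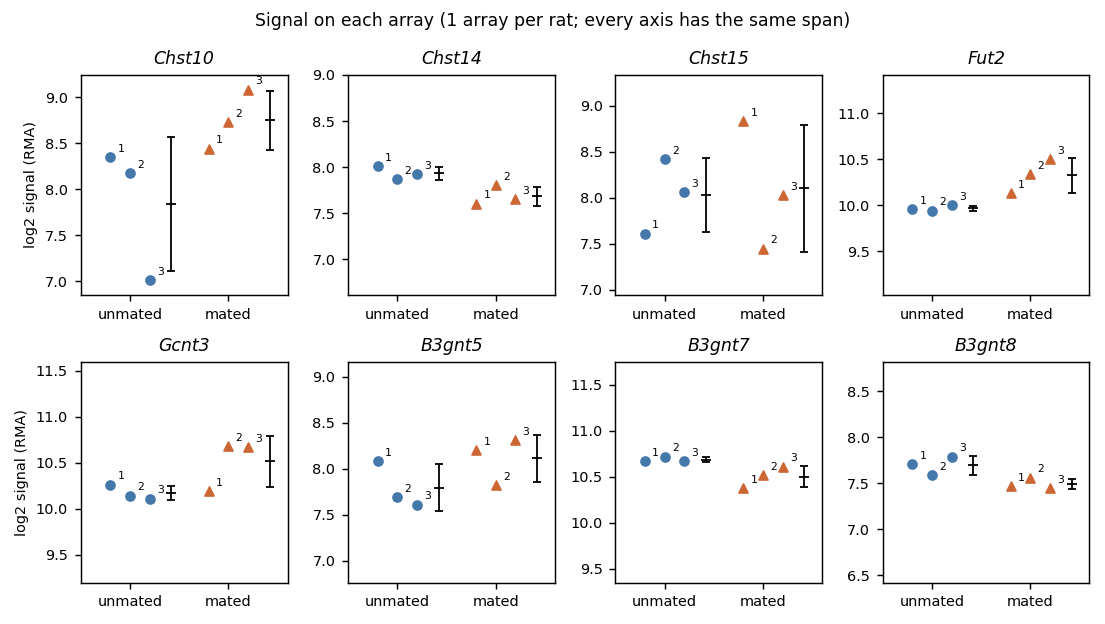
Log2 signal (vertical axis, of equal span in every panel) of 8 members on each of the 3 unmated arrays (circles) and 3 mated arrays (triangles), numbered by replicate, with the mean and SD of each group beside them. Unmated replicate 3 lies at 7.01 for Chst10 while the other 5 arrays lie between 8.17 and 9.08; for Chst15 the unmated values lie inside the wider range of the mated values.

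Chst14, which sulfates dermatan, was the Chst gene at an unadjusted p under 0.05 in the other direction. It was at 8.01, 7.87 and 7.92 in unmated and 7.60, 7.80 and 7.65 in mated rats. The mated arrays lie below the unmated ones without overlap, and the log2 fold change was -0.25 (95% confidence interval -0.43 to -0.07; adjusted p = 0.984 by limma). With each array left out in turn it lay between -0.31 and -0.21, and its interval took in 0 without unmated replicate 1 (-0.43 to 0.0064). Chst15, which adds a further sulfate to chondroitin and is named after its values were seen, was at 7.61, 8.42 and 8.06 in unmated and 8.83, 7.45 and 8.03 in mated rats. The highest and the lowest array both belong to the mated group, and the log2 fold change was 0.07 (-0.70 to 0.84). The 10 Chst genes other than Chst10 had a median log2 fold change of 0.052, from -0.25 for Chst14 to 0.17 for Chst5, which sulfates N-acetylglucosamine (-0.04 to 0.37).

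Within groups, Chst15 and Chst10 varied most of all the members. The pooled SD within groups was 0.57 for Chst15 and 0.56 for Chst10, which placed them at 39 and 41 among the 14506 genes ordered from the largest SD. The next members were St6galnac3 at 0.33, Gcnt2 at 0.30 and St3gal4 at 0.27. The median was 0.12 over the members and 0.11 over all genes. The lowest array of Chst10 lay 1.16 below the next lowest, and 11 genes in all had such a gap of at least 1 log2 unit, 4 of them with unmated replicate 3 as the lowest array.

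**Figure D4:**
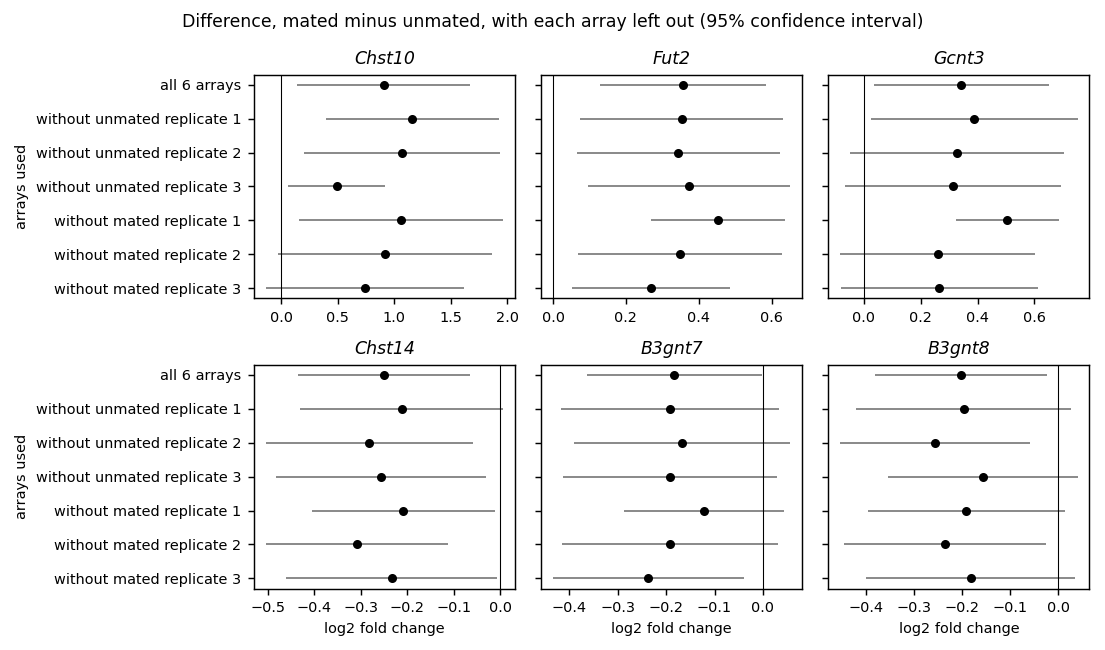
Log2 fold change, mated minus unmated (horizontal axis, scaled for each gene), of the 6 members at an unadjusted p under 0.05, with 95% confidence intervals from limma, for all 6 arrays and with each array left out. The Chst10 difference is 0.91 with all arrays and 0.49 without unmated replicate 3. Every estimate of the 6 genes keeps its sign. Except for Gcnt3 the groups do not overlap, so leaving out 1 array could not change the sign.

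Of the other genes of the HNK-1 pathway, 0 reached an unadjusted p under 0.05. Since only 4.57% of all genes did, a 0 here or in the lists below is not read as a result. B3gat1 and B3gat2 transfer the glucuronic acid that Chst10 sulfates. B3gat1 was at 7.52, 7.39 and 7.45 in unmated and 7.41, 7.57 and 7.48 in mated rats, a log2 fold change of 0.03 (95% confidence interval -0.14 to 0.21). B3gat2 was at 10.09, 9.88 and 9.85 in unmated and 9.95, 10.25 and 10.09 in mated rats, a log2 fold change of 0.16 (-0.08 to 0.39). In both genes the groups overlap. B4gat1 and Large2, which add glucuronic acid to O-mannosyl glycans, differed by 0.00 (-0.19 to 0.19) and -0.03 (-0.18 to 0.12). Of 10 measured genes of the HNK-1 and O-mannosyl list, 3 were higher, 6 lower and 1 equal, with a median of -0.020, and 0 had an unadjusted p under 0.05. Of 6 measured carriers of these glycans 4 were higher, 2 lower and 0 had an unadjusted p under 0.05, and the one of smallest p, the matrix protein gene Tnr at 0.10, lies within the receptor range.

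The supply of building blocks was compared in the same way, with members of the 12 families left out of each list. Of 23 genes that make sugar nucleotides and the sulfate donor, 12 were higher and 11 lower, with a median of 0.013; Gfpt2, an entry enzyme of the hexosamine pathway, led by p with 0.15 (95% confidence interval -0.00036 to 0.29), within the receptor range. Of 15 Golgi and sulfate transporters, 6 were higher and 9 lower, with a median of -0.037, and 1 had an unadjusted p under 0.05. This was Slc26a1, a sulfate transporter, at 8.05, 7.83 and 7.80 in unmated and 8.05, 8.21 and 8.13 in mated rats. Mated replicate 1 equals the highest unmated array, and the log2 fold change was 0.24 (0.03 to 0.44). Of 25 genes of heparan sulfate and chondroitin synthesis, 11 were higher and 14 lower, with a median of -0.0067 and 0 at an unadjusted p under 0.05; Hs3st6, a heparan sulfate sulfotransferase, led at 0.15 (-0.0013 to 0.30).

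Of 24 other core and capping enzymes, 10 were higher, 13 lower and 1 equal, with a median of -0.012, and Gal3st4, a galactose sulfotransferase within the receptor range, was lower at -0.27 (95% confidence interval -0.48 to -0.06). Of 18 glycosidases and sulfatases, 12 were higher and 6 lower, with a median of 0.033; Galns, a lysosomal sulfatase of keratan and chondroitin sulfate, was at 7.81, 7.80 and 7.81 in unmated and 7.61, 7.51 and 7.70 in mated rats. Its groups do not overlap, and the log2 fold change was -0.20 (-0.37 to -0.03). These are the only genes of their lists at an unadjusted p under 0.05.

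Of 28 glycan-binding lectins, 18 were higher and 10 lower, with a median of 0.033, and 14 lay within the receptor range. Lgals1, which encodes galectin-1, a lectin for galactose chains that is made mainly by stromal cells, was at 9.84, 9.65 and 9.69 in unmated and 9.09, 9.46 and 9.43 in mated rats. All mated arrays lie below the unmated ones, mated replicate 1 lowest, and the log2 fold change was -0.40 (95% confidence interval -0.66 to -0.14; adjusted p = 0.984 by limma). Relative to the unmated mean, the mean of 12 fibroblast markers was -0.20, -0.084 and 0.013 on the 3 mated arrays. It lay between -0.15 and 0.17 on the unmated arrays, and 9 of 12 markers were lower in mated rats, against 45.5% of all genes. Their part in the Lgals1 difference was not tested. Clec4a, a lectin receptor of myeloid cells, differed by -0.27 (-0.50 to -0.04) within the receptor range.

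Enzymes that conjugate steroids and other small molecules stand beside Chst10 for its described action on glucuronidated steroids. Of 11 cytosolic sulfotransferases, 6 were higher and 5 lower, with a median of 0.050, and 3 had an unadjusted p under 0.05, beside 4.57% of all genes. Sult1b1, which sulfates phenols and thyroid hormones, was at 8.99, 8.92 and 9.02 in unmated and 9.44, 9.49 and 9.19 in mated rats. All mated arrays lie above the unmated ones, and the log2 fold change was 0.40 (95% confidence interval 0.18 to 0.61; adjusted p = 0.984 by limma). Sult2b1, a cholesterol sulfotransferase, differed by 0.16 (0.01 to 0.32), and Sult2a2 by -0.19 (-0.37 to -0.02) within the receptor range. Of 7 measured UDP-glucuronosyltransferases, the enzymes that make glucuronides, 6 lay within the receptor range and 4 were higher; Ugt2a1 differed by 0.25 (0.05 to 0.44) within that range. In all 10 of these lists 0 genes passed the adjusted threshold by limma.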

How the data were processed

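RNA of each rat (0.3 µg) was converted to labelled sense-strand cDNA for Affymetrix whole-transcript arrays, per the labels. RMA and Affymetrix Expression Console are named in the submitters' processing notes. The authors deposited 1 log2 signal for each probe set and array, which was used unchanged. Versions and genome build are not given in the sources used here. Array medians lay between 7.89 and 7.94. Of 29214 probe sets, 15310 had 1 gene symbol, 323 several and 13581 none listed; only the first were used, giving 14506 genes. Of these probe sets 15279 matched RefSeq genes (GRCr8), with 0 changed symbols. Depth has no meaning for arrays; their number limits precision.

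The groups were compared in limma 3.58.1 under R 4.3.3 (lmFit, eBayes, no block), two-sided, on all genes, with Benjamini-Hochberg adjustment and a threshold of 0.05. Log2 fold changes are mated minus unmated. The procedure was checked on simulated data. Members, families and lists were chosen with earlier results of these data known, so families and lists are described by counts and medians without a test. Named genes are Chst10, in each family the member of smallest p and of largest difference, and members at an unadjusted p under 0.05. They also include the 6 largest differences in each direction, the members nearest the receptor limit and enzymes of the HNK-1 and O-mannosyl pathway. From each list of related genes, the leading gene and any gene at an unadjusted p under 0.05 are named. Others are said to be named after their values were seen, or are given for a range, a ranking or their probe sets. The part of the rule on protein identity was not used here. The labels give separate animals as replicates. The 15 alternatives were the replicate block, intensity trend, robust fitting, array weights, second quantile normalization, median centring, leaving out the dimmest 25% or the genes at or below the receptor limit, averaging probe sets, and leaving out each array.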

Additional observations from a re-analysis of the deposited data

How the results depend on the processing

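Under all 15 alternatives 0 of the members analysed passed the adjusted threshold by limma; at an unadjusted p under 0.05 there were between 5 and 8. Their share was above that of all genes in the fit reported, but below it with array weights (5.88% against 8.32%) and without mated replicate 1 (5.88% against 9.67%). Chst10 kept its direction in each, between 0.49 and 1.16 with 1 array left out. Its groups do not overlap, so leaving out 1 array could not reverse it. Samples of the same replicate number shared no clear deviation, with correlations of 0.004, -0.083 and 0.074. Those of different numbers lay between -0.131 and 0.136. Such correlations cannot show whether the samples were paired. With the replicate block 0 members passed the adjusted threshold, and 4 were higher and 2 lower at an unadjusted p under 0.05. Of these, 4 were among the 6 of the fit reported, while B3gnt7 and B3gnt8 dropped out. With each array left out, the members higher at an unadjusted p under 0.05 numbered 3 to 5 and those lower 1 to 3 (1 without unmated replicate 1 or mated replicate 1). Members without overlap then numbered 7 to 10 above and 5 to 10 below, since fewer arrays separate more easily. The same shares over all genes were not computed for these fits, so nothing is read from these counts.

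The median over members, 0.043, was 0.018 with array weights, 0.021 after a second quantile normalization, 0.017 without the dimmest 25% and 0.017 without genes at or below the receptor limit, and 0.020 to 0.043 with 1 array left out. The Galnt median was 0.026 after a second quantile normalization, and the St8sia median was -0.14 without genes at or below the receptor limit, where 1 gene remained. With 1 array left out the medians ranged from 0.0067 to 0.036 for Galnt, 0.010 to 0.14 for B3galt, -0.010 to 0.058 for B4galt, -0.051 to 0.063 for St3gal, -0.081 to -0.028 for St6gal and 0.0067 to 0.10 for Chst; the cause was not tested. Directions reversed for St3gal4 (-0.065 without unmated replicate 2, up to 0.28 without others), St8sia2 (0.010 without unmated replicate 3, down to -0.29), St8sia1 (-0.047 without mated replicate 2, up to 0.11) and B3gat1 (-0.0083 without mated replicate 2, up to 0.072).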
